A study of Danio rerio with 4 samples.

Results

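Broad stable domains are stretches of the zebrafish genome that carried H3K27ac peaks in every library, kept a similar maximum with and without AP-1 inhibition, and were wide. Peaks of the 4 libraries that shared at least 1 bp were merged into 51678 sites, of which 17511 were called in all 4 lists and 15296 of these lay on chromosomes 1 to 25 outside the part of chromosome 4 from 30 Mb on. At these 15296 sites the highest maximum of each list was taken on the log2 scale relative to the median of that list, and the difference was the mean of the *Epi/FB:dnAP-1* lists minus the mean of the control lists. Sites with a difference below 0.5 in size numbered 11852, or 77.5% of the shared sites. The 1115 of them that were at least 10000 bp wide are the broad stable domains, and the 10737 below that width are called narrow stable sites here. The members were chosen by the group difference of the maxima and by the merged width, so maxima and widths are described without a test.

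CUT&Tag for H3K27ac, in which an antibody guides a transposase to acetylated chromatin, was run on nonCMs (cells other than cardiomyocytes) freshly isolated from the injury area of adult hearts at 7 dpa, where dpa stands for days post amputation of the ventricular apex. Each group had 2 libraries, *Epi/FB:dnAP-1* and control, which the study calls biological duplicates. In *Epi/FB:dnAP-1* fish, a Cre-ERT2 driven from a *tcf21* BAC removes a dsRed stop cassette after 4-HT injection, and a Flag-tagged dominant-negative AP-1 is then expressed from the *ubb* promoter. The methods describe controls of such lines as double transgenic fish given ethanol vehicle, whereas the labels name the control libraries only as CTRL and WT, and both groups had the apex resected. Cre is thus limited to *tcf21*-expressing epicardial cells and fibroblasts (Epi/FBs), while every library holds all nonCMs, and the number of hearts behind a library is not given. A change of H3K27ac in a part of the cells and a change in the share of those cells cannot be told apart in such bulk libraries.

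H3K27ac is the acetylation of lysine 27 on histone H3, placed by p300 and CBP at active promoters and enhancers and removed by histone deacetylases. Wide stretches of it often cover clusters of enhancers, or a promoter together with the enhancers beside it, and in many tissues such stretches lie at genes that set cell identity. AP-1 is a dimer of Jun and Fos family proteins that binds many enhancers after injury, and a dominant-negative form occupies the partner without activating transcription.

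For each peak the deposited lists give a summed coverage, a maximum coverage and the region holding that maximum, all scaled by the authors with 1 factor per library. Below, "with dnAP-1" stands for the *Epi/FB:dnAP-1* libraries, and a pair of values is that of replicate 1 and then of replicate 2. Every maximum was a whole multiple of a step, which was 0.68 in both libraries with dnAP-1 and 1.26 and 1.38 in controls. The lists held 38429 and 32978 peaks with dnAP-1 and 32638 and 33076 in controls. They hold no read totals, so no counting interval was given. The median maximum of a broad stable domain stood at 77 and 75 steps with dnAP-1 and at 32 and 25 steps in controls, so that a given value is more finely resolved in the lists of *Epi/FB:dnAP-1* libraries.

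The broad stable domains summed to 16.05 Mb and held 7.29% of the shared sites. Their widths ran from 10002 to 58486 bp with a median of 12509 bp, against a median of 4036 bp for narrow stable sites. From 10000 to 12000 bp there were 492 domains, from 12000 to 15000 bp 322, from 15000 to 20000 bp 172, from 20000 to 30000 bp 96, and 33 were at least 30000 bp wide. The class next to the lower limit of width was thus the fullest. Of the 1523 shared sites at least 10000 bp wide, 408 lay outside the limit of difference, 137 of them higher and 271 lower with dnAP-1. The share within the limit was 77.7% among sites of 10000 to 12000 bp and 41.2% among those of 30000 bp or more.

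The merged width of a domain often exceeded that of any single peak in it. In 475 domains (42.6%) no list held a single peak of 10000 bp or more, in 426 only 1 list did, and in 26 all 4 lists did. Such a wide peak was present in 155 and 412 domains with dnAP-1, and in 288 and 122 domains in controls. The replicates of a group differed in this count by more than the groups did. All 4 lists had only 1 peak in 84 domains (7.53%), against 8925 narrow stable sites (83.1%), and the most peaks of 1 list in a domain was 8.

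Peaks covered a median of 66.9% and 82.5% of the domain width with dnAP-1, and 74.6% and 61.6% in controls. The bases covered in all 4 lists at once made up 37.9% of the summed width of the domains and 44.1% of that of narrow stable sites. This common core came to 10000 bp or more in 113 domains, and in 329 domains it was below 25% of the width. The plot of wide peaks and coverage shows both measures.

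**Figure D1:**
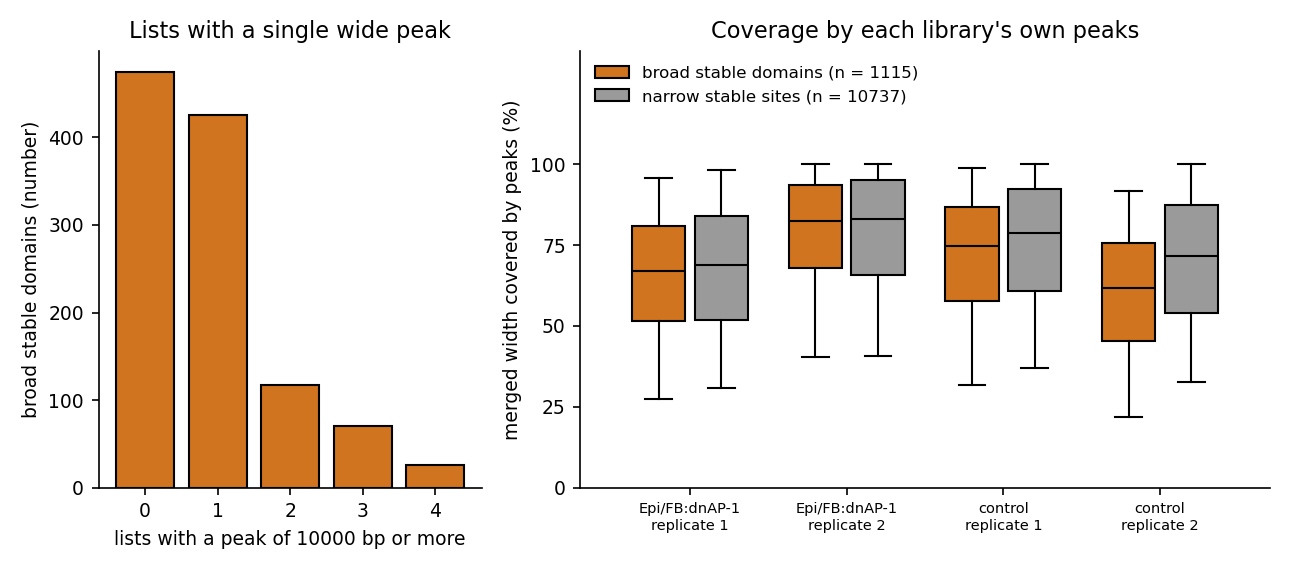
Left, number of broad stable domains by how many of the 4 lists hold a single peak of at least 10000 bp in them. Right, percent of the merged width covered by the peaks of each library, in broad stable domains (orange) and narrow stable sites (grey), with the median, the quartiles and whiskers at the 5th and 95th percentiles over sites; the median for domains runs from 61.6% in control replicate 2 to 82.5% in *Epi/FB:dnAP-1* replicate 2.

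The 5 widest domains show how differently such a stretch can be built. The widest lay on chromosome 1 (GRCz11 chr1:8936-67421), 5.09 kb from the first site of the chromosome, and its maximum was 57.8 and 59.84 with dnAP-1, against 44.1 and 45.54 in controls. After centring, the difference was 0.01. In *Epi/FB:dnAP-1* replicate 1 it was 1 peak, whereas the other libraries split it into 3 peaks (*Epi/FB:dnAP-1* replicate 2), 5 peaks (control replicate 1) and 8 peaks (control replicate 2), and 55.6% of its width was covered in all 4 lists. The third widest, on chromosome 16 (chr16:36390548-36441069), was covered in all 4 lists over 83.1% of its 50522 bp, in 1 peak in every library except *Epi/FB:dnAP-1* replicate 1, which had 4. Its maximum was 121.04 and 128.52 with dnAP-1 and 103.32 and 114.54 in controls, at or above the 99.3 percentile of peaks in each list.

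The second widest (chr13:51953521-52005856) had a maximum of 76.84 and 72.76 with dnAP-1 and 76.86 and 84.18 in controls, and its difference of -0.48 was close to the limit. The fourth widest (chr17:27718876-27763955) had a maximum of 70.04 and 57.8 with dnAP-1 and 61.74 and 56.58 in controls. Its centred difference was -0.27. This domain holds an open chromatin region that the study assigned to *qkia*, which encodes an RNA-binding protein of the quaking family. The fifth (chr4:36300-77425), again near the start of a chromosome, had a maximum of 45.56 and 51 with dnAP-1 and 47.88 and 38.64 in controls. Its centred difference was -0.21. Among these 5 domains the highest peaks of the 4 libraries lay from 3290.5 to 45707 bp apart, so the strongest point of such a stretch was not the same in every library.

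**Figure D2:**
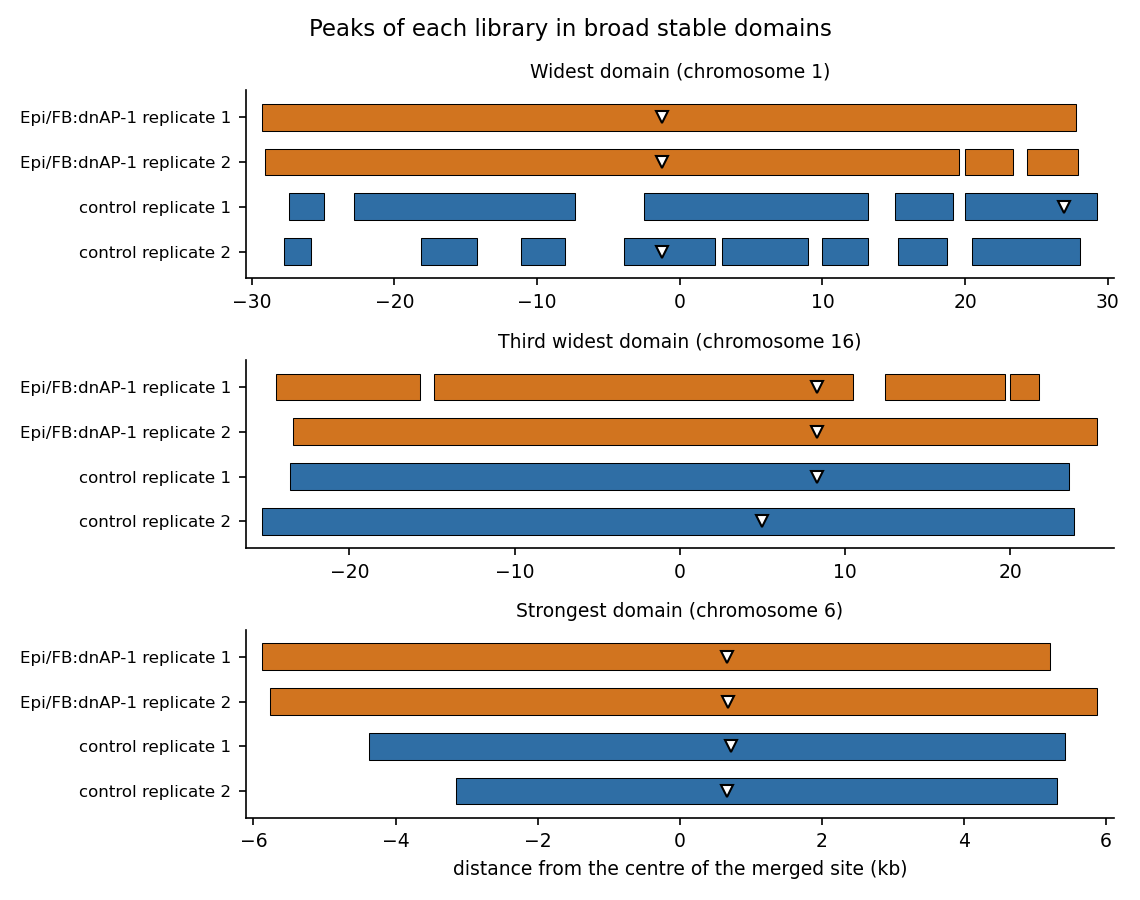
Peaks of each library (bars; orange, *Epi/FB:dnAP-1*; blue, control) in the widest, the third widest and the strongest broad stable domain, by distance in kb from the centre of the merged site; triangles mark the highest maximum of a library. The widest domain is 1 peak in *Epi/FB:dnAP-1* replicate 1 and 8 peaks in control replicate 2, while the strongest is 1 peak in each library.

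The maxima of broad stable domains were higher than those of narrow stable sites in each of the 4 libraries. The median maximum was 52.36 and 51 with dnAP-1 and 40.32 and 34.5 in controls, against 42.16, 41.48, 34.02 and 28.98 for narrow stable sites in the same order. On the log2 scale, broad minus narrow was 0.31 and 0.30 with dnAP-1 and 0.25 in both controls. The mean was 0.28 ± 0.03 (SD, n = 4 libraries), or 1.21-fold. The rule used these maxima, and the maximum of a domain is taken over more bases than that of a narrow site, so the difference is given as a description. In the plot of maxima the distributions overlap over most of their range, and 31.0% to 33.4% of domains lay below the median of their list.

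Mean signal per covered base had the opposite order. It was 7.29 and 7.22 in the median domain with dnAP-1 and 7.86 and 7.46 in controls, against 9.67, 9.57, 9.53 and 8.77 for narrow stable sites. Broad minus narrow was -0.41 in both libraries with dnAP-1 and -0.28 and -0.23 in controls, with a mean of -0.33 ± 0.09 (SD, n = 4 libraries; two-sided exact permutation test over libraries, p = 0.13, the smallest that 4 libraries allow, which cannot reach 0.05). The divisor, covered bases, goes with the merged width that the rule used, so the test cannot decide and the order is a description. The median ratio of maximum to mean in a domain was 6.83 and 6.77 with dnAP-1 and 4.98 and 4.33 in controls. For narrow stable sites it was 4.14, 4.15, 3.44 and 3.16 in the same order. A higher ratio with dnAP-1 was thus not particular to the domains. The median domain thus had lower average coverage and a higher highest point than the median narrow site, in all 4 libraries. Domains took 10.2% and 11.1% of the covered bases with dnAP-1 and 10.3% and 11.2% of their signal, against 9.72% and 9.55% of the bases and 9.28% and 8.91% of the signal in controls.

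**Figure D3:**
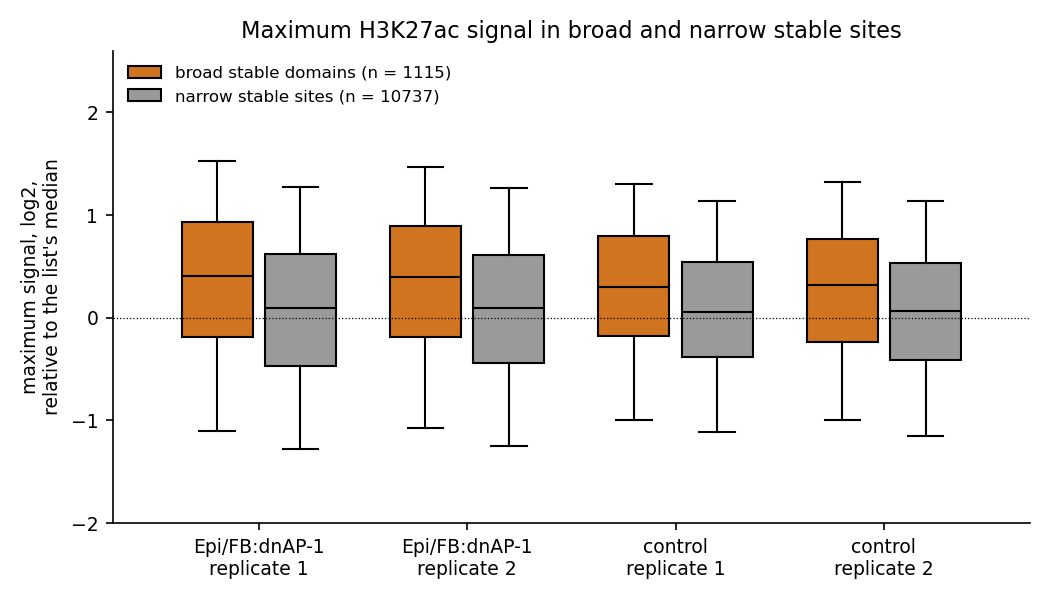
Maximum signal (log2, relative to the median of the list over shared sites) in each library for 1115 broad stable domains (orange) and 10737 narrow stable sites (grey); boxes give the median and quartiles over sites, whiskers the 5th and 95th percentiles. The median of the domains is higher by 0.25 to 0.31 in each library, and the boxes overlap.

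Median strength increased from class to class of width. A wider domain takes its maximum over more bases, and the rule used maxima and width, so the order is a description. Mean signal per covered base is not given by class. The median of the centred log2 maximum over the 4 lists was 0.18 for domains of 10000 to 12000 bp, 0.37 from 12000 to 15000 bp, 0.52 from 15000 to 20000 bp, 0.61 from 20000 to 30000 bp and 0.85 from 30000 bp on. Among all domains it ran from -1.84 to 2.22. None of the 5 strongest was among the 5 widest.

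The strongest domain (chr6:21848648-21860394, 11747 bp) had a maximum of 209.44 and 191.08 with dnAP-1 and 153.72 and 106.26 in controls. It was 1 peak in each library, the 4 highest points lay within 53 bp, and its difference was 0.27. The next were on chromosome 14 (chr14:7734952-7747841), at 163.88 and 171.36 with dnAP-1 and 109.62 and 84.18 in controls, and on chromosome 4 (chr4:22456739-22481753), with 144.16 and 164.56 against 100.8 and 103.5. The other 2 were on chromosome 20 (chr20:28261116-28272552), at 183.6 and 153.68 with dnAP-1 and 103.32 and 82.8 in controls, and on chromosome 13 (chr13:17720964-17731704), with 163.88 and 167.28 against 103.32 and 80.04. The domain on chromosome 13 was covered over 80.3% and 80.8% of its width with dnAP-1, but over 27.2% and 24.5% in controls. Its widest control peaks were 2918 and 2636 bp, and its difference by summed signal was 0.78. In the deposited values each of these 5 domains was higher in both libraries with dnAP-1 than in both controls. Without centring, the median difference was 0.48 for all domains and 0.40 for narrow stable sites, so nothing is read from that order. After centring, the differences of the 5 domains ran from 0.21 to 0.49. In the domain on chromosome 4 the centred values of the groups overlapped, with control replicate 2 above *Epi/FB:dnAP-1* replicate 1. In the others both libraries with dnAP-1 stayed above both controls. The weakest domain, singled out after its values were seen (chr1:59293337-59303959) had a maximum of 10.88 and 8.16 with dnAP-1 and 11.34 and 8.28 in controls.

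Within the limits set by the rule, the differences of the domains leaned to the positive side. The median was 0.10, with 714 domains above 0 and 401 below, and 271 domains lay within 0.1 of 0. On the deposited values without centring the median difference was 0.48, so that which sites count as stable depends on the centring. In 376 domains (33.7%) both *Epi/FB:dnAP-1* libraries were above both controls after centring, where the share among all shared sites was 24.6%. In 144 domains (12.9%) both were below, where the share among all shared sites was 29.5%. Since the members were selected on this contrast, nothing is read from these shares. By summed signal in place of the maximum, 906 domains (81.3%) had a difference below 0.5 in size, 110 were higher with dnAP-1 and 99 lower by at least that much. These counts were not taken for narrow stable sites or for all shared sites, so nothing particular to the domains is read from them. The quartiles of the difference by summed signal were -0.16 and 0.27 for domains and -0.18 and 0.28 for narrow stable sites. Summed signal comes from the same peaks as the maxima that the rule limited, so it is no separate check.

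At the limits of the rule, the members just inside were chr17:35055565-35066760 (difference -0.499) and chr10:34368383-34378778 (0.499), and the sites just outside were chr18:23248877-23265457 (-0.501) and chr6:40558775-40575739 (0.501). By width, chr12:22719167-22729168 and chr21:738374-748375 were the narrowest members at 10002 bp each, and chr7:50819022-50829018 and chr19:11735105-11745098 missed the limit at 9997 and 9994 bp. The second of the narrowest members holds an open region assigned to *oaz1b*, an antizyme that limits polyamine synthesis, and had a maximum of 37.4 and 28.56 with dnAP-1 and 25.2 and 23.46 in controls. After centring, its difference was 0.05, and by summed signal it was -0.43.

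Replicates differed little at most domains. The median absolute difference between the replicates of a group, on the centred log2 scale, was 0.16 with dnAP-1 and 0.23 in controls, against 0.19 and 0.23 at narrow stable sites. It was below 0.5 in 1051 domains (94.3%) with dnAP-1 and in 956 (85.7%) in controls, and in both groups in 908 (81.4%). At narrow stable sites the shares by group were close to these, at 92.1% and 83.5%. For wide shared sites outside the limit of difference, the median replicate difference was 0.206 with dnAP-1 and 0.209 in controls. Close replicates were thus not particular to the domains. The group difference was smaller than both replicate differences in 355 domains and larger than both in 354. The rule limited the group difference but not the replicate differences, and these counts were not taken for other sites. Nothing is read from them. Across the 1115 domains, the maxima correlated with Pearson's r = 0.943 for the pair of *Epi/FB:dnAP-1* replicates, 0.875 for the control pair and 0.892 to 0.915 between libraries of different groups. The domains were kept for a small group difference of these maxima, which raises the correlations between groups, so these are not set against those within a group. All run across sites, which share libraries and are not independent replicates. The bases covered by peaks overlapped with a Jaccard index of 0.667 between the *Epi/FB:dnAP-1* replicates, 0.566 between the control replicates and 0.566 to 0.630 between groups, so that by covered bases the control replicates were no more alike than libraries of different groups.

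The best agreement was at chr4:8672843-8690135, with a maximum of 36.72 and 36.04 with dnAP-1 and 28.98 and 24.84 in controls, where the scaled lists differ in level and centring removes it. Next were chr5:9627766-9638591 (52.36 and 51.68 with dnAP-1, 41.58 and 34.5 in controls) and chr19:21363019-21373692 (93.84 and 92.48 with dnAP-1, 56.7 and 46.92 in controls). The last of these passed the rule with a difference of 0.47, larger than either replicate difference.

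The poorest agreement was at chr7:44426782-44436905, at 34.68 and 6.8 with dnAP-1 and 11.34 and 12.42 in controls. Its difference of -0.01 averages 1 high and 1 low library, and only 0.2% of its width was covered in all 4 lists. At chr3:7222957-7234402 replicate 1 was the higher library in both groups, at 23.12 and 10.2 with dnAP-1 and 25.2 and 8.28 in controls. At chr17:35014685-35027787 replicate 2 was the higher one in both, at 14.96 and 23.8 with dnAP-1 and 12.6 and 31.74 in controls. These 3 domains met the rule by their group means only. A replicate difference of 1 or more was found in 2 domains with dnAP-1 and 17 in controls.

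**Figure D4:**
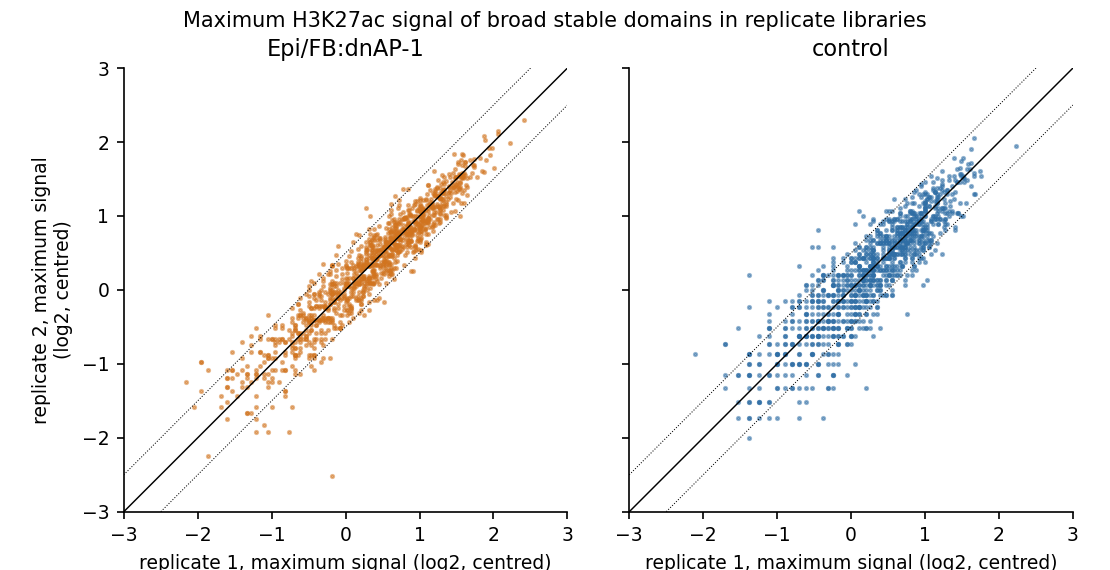
Maximum signal (log2, relative to the median of each list) of the 1115 broad stable domains in replicate 2 against replicate 1, for *Epi/FB:dnAP-1* (left) and control (right) libraries; the solid line marks equal values and the dotted lines a difference of 0.5. In *Epi/FB:dnAP-1* 94.3% of the points lie between the dotted lines, and in controls 85.7%, where low values fall on the coarser steps of those lists.

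The highest point of a domain was shared by all 4 libraries to within 1000 bp in 729 domains (65.4%), with a median spread over all domains of 223.5 bp. Among narrow stable sites, where less room exists for distance, 89.1% met the same limit. The highest points of replicates lay within 1000 bp in 969 domains (86.9%) with dnAP-1 and in 860 (77.1%) in controls, and in 207 domains (18.6%) the 4 libraries spread over more than 5000 bp. Of the 729 domains with a shared highest point, 326 (44.7%) had it closer to an edge than 25% of the merged width. This share was not taken for narrow stable sites, so no preference for an edge is read from it. Over all domains, the lower quartile of the distance from the mean highest point to the nearer edge was 0.19 of the width. For all narrow stable sites it was 0.25.

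Domains had closer neighbours than narrow stable sites, as did wide shared sites outside the limit of difference. The gap from a domain to the nearest site was 1430 bp in the median, against 2829 bp for narrow stable sites, and the gap to the nearest site called in all 4 lists was 4713 bp against 12001 bp. For the wide shared sites outside the limit these gaps were 1330.5 and 3680 bp, so a short gap was not particular to the domains. Measured within the list of each library, the median gap to the next peak was 4032 and 3664 bp for domains with dnAP-1 and 4631 and 5847 bp in controls, against 6021, 6050, 7189 and 7842 bp for narrow stable sites. The domains had the shorter gap in all 4 libraries. Another site lay within 1000 bp of 39.5% of domains, of 42.4% of wide sites outside the limit and of 27.7% of narrow stable sites, and no site lay within 10000 bp of 6.82% of domains, 9.07% of wide sites outside the limit and 21.5% of narrow stable sites. The most isolated domain, also singled out after the values were seen (chr10:25199078-25209234) was 118172 bp from the next site and had a maximum of 54.4 and 48.28 with dnAP-1 and 39.06 and 40.02 in controls. The nearest shared site was itself stable for 76.8% of domains and for 79.4% of narrow stable sites, shares that bracket the 77.5% of all shared sites.

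Some domains lay near each other. In 392 domains (35.2%) another was within 50 kb, and such neighbours formed 168 runs of 2 or more and 37 of 3 or more. These counts were not set against those of other sites, so they are given as a description. The nearest shared site was a domain for 15.4% of domains and for 7.06% of narrow stable sites. This share was not taken for wide sites outside the limit of difference. The longest run held 11 domains over 305 kb at the start of chromosome 10 (chr10:9748-314637), with differences from -0.47 to 0.27. Of its domains, 2 hold open regions, assigned to *mpzl1l* and *emsy*, named after the run was seen. The closest pair, 60 bp apart on chromosome 17 (chr17:27779828-27793008 and chr17:27793069-27806682), lay near the wide domain with the *qkia* region (chr17:27718876-27763955). Another site lay between the pair and that domain. The first of the pair had a maximum of 13.6 and 17 with dnAP-1 and 12.6 and 13.8 in controls, and the second of 25.84 and 25.16 against 23.94 and 23.46, both well below the *qkia* domain.

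The share of domains near a chromosome end was higher than that of narrow stable sites. Within 500 kb of the first or last site of a chromosome lay 146 domains (13.1%), against 364 narrow stable sites (3.39%) and 4.87% of all shared sites. Wide shared sites outside the limit of difference stood at 14.0%, close to the share of the domains. By width the share was 7.52% for domains of 10000 to 12000 bp, 8.70%, 19.2% and 33.3% in the next classes, and 48.5% (16 of 33; 95% exact binomial interval 30.8% to 66.5%, for counting error only) from 30000 bp on. The 146 domains lay on all 25 chromosomes, with the most, 14, on chromosome 10. Their median width was 15959.5 bp against 12265 bp for the other 969 domains, and 63.0% of them had another domain within 50 kb, against 31.0% of the others. The medians of their maxima were 52.02 and 50.32 with dnAP-1 and 44.1 and 34.5 in controls near the ends, and 52.36, 51.68, 40.32 and 34.5 elsewhere. Across chromosomes the domains numbered from 27 (chromosome 25) to 64 (chromosome 20). Per Mb they ran from 0.655 on chromosome 9 to 1.30 on the part of chromosome 4 that was used.

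**Figure D5:**
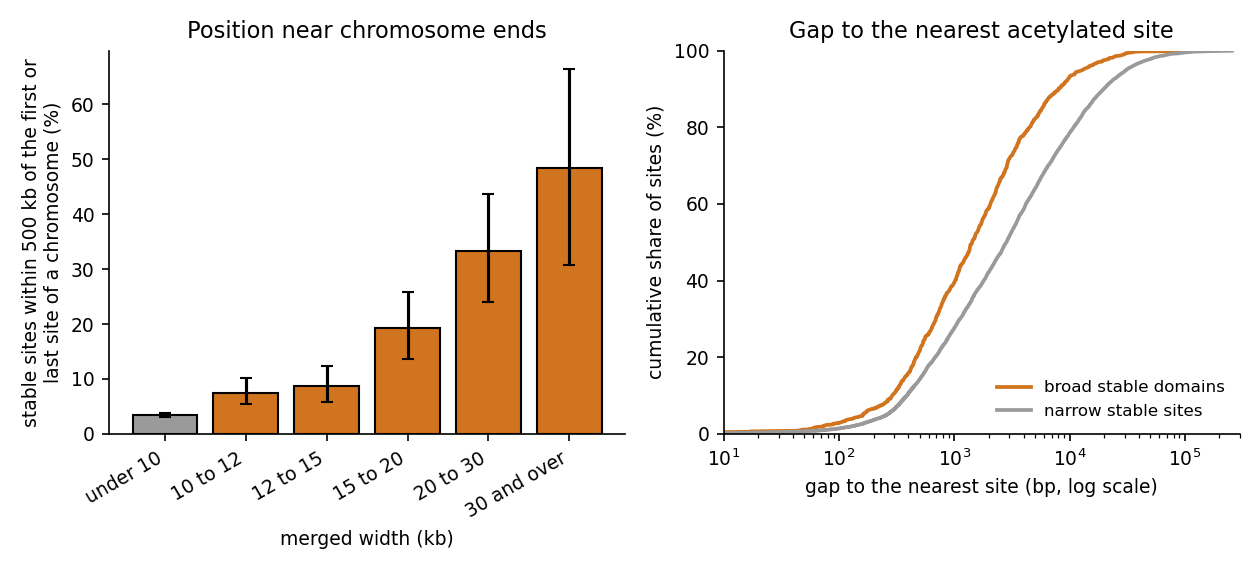
Left, percent of stable sites within 500 kb of the first or last site of a chromosome by merged width in kb (grey, narrow stable sites; orange, broad stable domains), with 95% exact binomial intervals for counting error. Right, cumulative percent of broad stable domains (orange) and narrow stable sites (grey) by the gap to the nearest merged site in bp on a log scale; the medians are 1430 and 2829 bp.

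Genes could be placed in domains only where the study's table of Epi/FB open chromatin regions assigns a region to a gene. Its legend describes active Epi/FB regions that overlap known candidate regeneration enhancers, so they need not stand for all Epi/FB open chromatin. From it 1999 regions were used, with none on 2 of the chromosomes, and their build is taken to be GRCz11 without being named there. Of these regions 45 fell in 44 domains and were assigned to 44 genes. Of 93 genes in 8 lists for the cell types and pathways of the injured heart, 51 had a region in the table, 90 regions in all, and 2 of these lay in a broad stable domain. Over all 1999 regions, 2.25% lay in a broad stable domain, a share close to that of the listed genes. The lists of epicardial and fibroblast genes, endocardial and vessel genes, AP-1 genes (a list without *june*), Tead and Yap genes, heart development factors and retinoic acid genes had no region in a domain. Of the 15 regions assigned to epicardial and fibroblast genes, 1 lay in a narrow stable site, 2 in shared sites that moved, 3 in other sites and 9 in no site of any list, where over all regions 6.45% lay in narrow stable sites, 3.2% in shared sites that moved, 19.4% in other sites and 68.7% in no site.

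One of the 2 was *irf1b*, an interferon regulatory factor of the immune response (chr21:45616879-45628549). Its domain had a maximum of 55.76 and 56.44 with dnAP-1 and 50.4 and 46.92 in controls, so that the deposited values were higher with dnAP-1 while the centred difference was -0.17. By summed signal the centred difference was 0.28, so no direction is read. The other was *bmp8a*, a ligand of the BMP pathway (chr19:35092025-35102352), at 33.32 and 29.92 with dnAP-1 and 23.94 and 30.36 in controls, and a centred difference of -0.15. The deposited values of the groups overlapped. The *bmp8a* domain was covered in all 4 lists over 80.6% of its width.

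The following genes were chosen from the 44 after their values were seen. Among transcription factors, the domain with the region of *mafba*, a large Maf factor of macrophages and other lineages, had a maximum of 46.92 and 47.6 with dnAP-1 and 28.98 in both controls, and its highest points lay within 4.5 bp in all libraries. That of *foxo3b*, a forkhead factor acting downstream of insulin signalling, had 63.92 and 65.96 against 40.32 and 34.5 in controls. That of *june*, a gene of the jun family and so of AP-1 itself, had 27.2 and 29.92 with dnAP-1 and 22.68 and 28.98 in controls, with overlapping values. That of *hif1aa*, the oxygen-regulated factor, had 21.76 and 27.88 with dnAP-1 and 21.42 and 22.08 in controls. After centring, the differences were 0.33 for *mafba*, 0.42 for *foxo3b*, -0.22 for *june* and -0.20 for *hif1aa*. By summed signal they were -0.25, 0.31, 0.24 and 0.45 in the same order. The sign was thus reversed for *mafba*, *june* and *hif1aa*, and no direction is read for them.

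Among signalling and matrix genes, *wnt5b*, a Wnt ligand, stood at 35.36 and 27.2 with dnAP-1 and 27.72 and 11.04 in controls, where the control replicates differed by more than those with dnAP-1 and no base was covered in all 4 lists. *s1pr2*, a receptor for sphingosine-1-phosphate that guides heart precursors to the midline in zebrafish embryos, had 2 regions in 1 domain, at 33.32 and 29.92 with dnAP-1 and 30.24 and 26.22 in controls. *loxl1*, a lysyl oxidase that crosslinks elastin, had 45.56 and 47.6 with dnAP-1 and 34.02 and 23.46 in controls. Cell cycle and survival genes among the 44 were *ccnd2a*, a D-type cyclin (20.4 and 18.36 with dnAP-1, 18.9 and 22.08 in controls), and *mcl1b*, a BCL2 family member (51.68 and 61.88 with dnAP-1, 51.66 and 49.68 in controls). After centring, the differences were 0.45 for *wnt5b*, -0.21 for *s1pr2*, 0.34 for *loxl1*, -0.46 for *ccnd2a* and -0.22 for *mcl1b*. By summed signal they were -0.76, -0.46, 0.78, -1.02 and -0.08 in the same order. Those of *wnt5b*, *loxl1* and *ccnd2a* thus exceeded 0.5 in size, and that of *wnt5b* had the opposite sign. Peaks covered 100% of the *mcl1b* domain in control replicate 1, but 33.4% and 33.7% with dnAP-1 and 30.2% in control replicate 2.

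The widest domains with a region, after that of *qkia*, were those of *faxdc2* (40758 bp, near the end of chromosome 21), *hivep2a* (36743 bp), *erbin* (34940 bp), *nav3* (34072 bp) and *sugct* (30090 bp). The *erbin* domain, named for a scaffold protein at cell junctions, had 123.08 and 94.52 with dnAP-1 and 89.46 and 56.58 in controls, with a centred difference of 0.22. The *hivep2a* domain was as wide but low, at 24.48 and 27.88 with dnAP-1 and 21.42 and 22.08 in controls, with a centred difference of -0.11. Its highest points lay 19943 bp apart. Width and strength could thus be far apart in a single domain.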

How the data were processed

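Per the methods and labels, the authors' pipeline used cutadapt 2.7 for adapters, Bowtie2 2.2.5 for alignment to GRCz11, SAMtools 1.9 and Picard for filtering of unmapped and duplicate reads, and ChIPseqSpikeFree for 1 scaling factor per library, before peaks were called in each library on its own. The deposited lists hold signal (summed and maximum scaled coverage) in the 6 columns of SEACR, and the methods also name MACS2. Total reads are not given, so the precision of a value is known only in steps.

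Coordinates are GRCz11, counted from 1. Groups and replicate numbers came from the labels. Members, gene lists and measures were chosen with earlier results of these data known. Mean signal per covered base was compared between broad and narrow stable sites with a two-sided exact permutation test over sign flips of the 4 within-library differences. The same test was planned for the maximum, whose values the rule used, and is not given for it. Neighbours, highest points and replicate differences were described without a test. By the rule set for naming, domains were named if they were among the 5 widest or 5 strongest, the 3 best or 3 worst by replicate agreement, next to a threshold, the closest pair, or held a region of a listed gene. Other domains were named outside that rule, after their values were seen. These were the weakest, the most isolated, the longest run and those with regions of further genes outside the lists. Names of open regions and genes came from a supplementary table of the study, of which no value was used. The rule was run on simulated lists whose sites lay away from the limits of width and difference, so nothing is learned there about sites near those limits. Sequences and transcription start sites were not analysed here. Python 3.11.15, numpy 2.4.6, pandas 2.3.3, scipy 1.17.1 and matplotlib 3.10.9 were used.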

Additional observations from a re-analysis of the deposited data

How the results depend on the processing

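The number of broad stable domains depended most on what counts as wide. It was 4812 from 5000 bp and 301 from 15000 bp, 536 where the peaks of every list had to cover 50% of a site, and 678 with a difference below 0.25. Without centring it was 693. Chosen after seeing the data, a common core of 10000 bp gave 113 and a single peak of 10000 bp in each list 26. With each library left out in turn it ran from 679 (without *Epi/FB:dnAP-1* replicate 2) to 953, with 709 without control replicate 1. The 845 domains with both numbered pairs below 0.5 (replicate block) stayed within 1.5 times the count. Same-numbered libraries deviated together with r = 0.12 across domains and 0.04 across shared sites, so the numbers were not taken to pair them. Averaged within the 2 numbered blocks, the difference of maxima was 0.28, equal by construction to the mean without blocks, so it is no check.

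The higher maximum of domains turned to -0.33 per covered base, as the report gives, and kept its sign under the other settings run, from 0.10 (from 5000 bp, or the top 50% of each list) to 0.48 (from 15000 bp). The replicate disagreement of -0.02, broad minus narrow, was -0.0021 by summed signal. Domains with a shared highest point numbered 729 of 1115 in the main setting and 179 of 301 from 15000 bp. With 1 library left out they were 660 of 953 and 451 of 679 without *Epi/FB:dnAP-1* replicates 1 and 2. Without control replicates 1 and 2 they were 500 of 709 and 661 of 909. The number of domains thus changed along with these counts. The gap of domains minus that of narrow sites, -1399 bp, was -7288 bp to sites called in all lists and from -1713.5 to -1500 bp with 1 library left out. The excess near chromosome ends, 9.70 percentage points, was 7.19 within 250 kb, 4.62 from 5000 bp and 23.2 from 15000 bp, and 9.06 to 16.1 with 1 library left out, the highest without *Epi/FB:dnAP-1* replicate 2; these were also chosen after seeing the data. The lists give no read depth, and maxima near the lower end of the control lists rest on 5 or 6 steps.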
